A study of Mus musculus with 4 samples.

Results

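The Dlk1-Dio3 domain of mouse chromosome 12 carries 2 groups of maternally expressed miRNAs, and this account follows the proximal group, the miRNAs that lie across from the Rtl1 gene and their neighbour in Rian. The members were chosen by name: every probe for miR-493, miR-337, miR-540, miR-665, miR-431, miR-433, miR-127, miR-434, miR-136 or miR-370, whichever arm of the hairpin it reads. This gave 13 of the 566 mouse miRNA probes, for 10 miRNAs. Mature miRNAs had been counted with the NanoString nCounter assay, in which a barcoded probe for each miRNA is counted molecule by molecule, in WT R1 mouse embryonic stem cells (ESCs) and in TKO ESCs, which lack the DNA methyltransferases Dnmt1, Dnmt3a and Dnmt3b. Each genotype was measured in 2 replicates, which makes 4 samples. Both genotypes were grown without feeder cells on gelatin, in serum with leukemia inhibitory factor, and per the labels both were differentiated for 4 days before RNA was isolated, by a procedure that the sources used here do not give. Leukemia inhibitory factor holds ESCs undifferentiated, so these labels conflict, and the state of the cells when RNA was taken is not settled here. Whether the TKO cells are 1 clone is not given in the sources used here either, so genotype and line cannot be told apart. The RNA is from whole cultures, in which fewer expressing cells and less miRNA per cell cannot be told apart.

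The Dlk1-Dio3 domain is imprinted, which means that each of its genes is read from only one parental chromosome. The protein-coding genes Dlk1 (a Notch-related ligand), Rtl1 (a gene derived from a retrotransposon and needed in the placenta) and Dio3 (an enzyme that inactivates thyroid hormone) are read from the paternal chromosome, and the noncoding RNAs Meg3, antisense Rtl1, Rian and Mirg, with the miRNAs inside them, from the maternal one. The choice is set by a control region between Dlk1 and Meg3 whose DNA is methylated on the paternal chromosome, so the domain is a natural place to compare cells with and without DNA methyltransferases. The miRNAs of the antisense Rtl1 transcript are fully complementary to the Rtl1 mRNA and can direct its cleavage, which is best known for miR-127 and miR-136.

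All 10 hairpins were matched to RefSeq on GRCm38.p6 and lie on the plus strand of chromosome 12. In order, they are Mir493 (chr12:109580233-109580315), Mir337 (chr12:109585789-109585885), Mir540 (chr12:109586080-109586146), Mir665 (chr12:109586314-109586407), Mir431 (chr12:109590447-109590537), Mir433 (chr12:109591715-109591838), Mir127 (chr12:109592846-109592915), Mir434 (chr12:109594506-109594599), Mir136 (chr12:109595327-109595388) and Mir370 (chr12:109618258-109618336). The first 9 fit within 15.2 kb and lie inside the annotated span of Rtl1 (chr12:109564900-109604418). Mir370 starts 22.9 kb further on, inside the span of Rian (chr12:109603945-109661716). The table of gene spans gives no exons, so positions within the exons and introns of Rtl1 and Rian are not given here. Each of the 10 hairpins held at least 1 CpG, the dinucleotide that the missing enzymes methylate, with a median of 2 and a range from 1 in Mir540, Mir665 and Mir136 to 8 in Mir431. Of all 1005 mouse hairpins given by RefSeq, 66.5% held a CpG, and the median was 1. The proximal group did not stand out within the domain, since 91.2% of 34 hairpins of the distal group held a CpG, with a median of 2.

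Mature sequences are shown for the miRNAs with a measured level above background in at least 1 sample, and for both arms of miR-337, which were added after their values were seen. They are written 5′ to 3′ with the seed, bases 2 to 8, by which a miRNA pairs with its targets, in capitals. For these the probe names the arm:

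miR-337-5p: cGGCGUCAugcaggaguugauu
miR-337-3p: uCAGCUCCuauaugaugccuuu
miR-540-3p: aGGUCAGAggucgauccugg
miR-434-5p: gCUCGACUcaugguuugaacca
miR-434-3p: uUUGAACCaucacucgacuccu

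The probes for miR-431, miR-433, miR-127, miR-136 and miR-370 carry no arm in their names, so both arms of each hairpin are shown and the probe is called by its name in the table:

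miR-431-5p: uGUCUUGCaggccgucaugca
miR-431-3p: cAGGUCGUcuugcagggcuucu
miR-433-5p: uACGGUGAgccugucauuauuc
miR-433-3p: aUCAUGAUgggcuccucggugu
miR-127-5p: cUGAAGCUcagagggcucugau
miR-127-3p: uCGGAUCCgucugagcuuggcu
miR-136-5p: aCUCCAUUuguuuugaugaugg
miR-136-3p: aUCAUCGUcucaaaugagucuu
miR-370-5p: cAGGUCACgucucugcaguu
miR-370-3p: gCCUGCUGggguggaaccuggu

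The 20 mature miRNAs of the 10 hairpins had 20 different seeds, so the group shares a locus and not a seed. Outside the group, 2 of these seeds occurred in another mouse miRNA of the table, that of miR-540-3p in miR-6915-5p and that of miR-370-5p in miR-1193-3p, which comes from the distal part of the domain. A CpG was present in 11 of the 20 mature sequences and inside the seed of 6, among them miR-127-3p, miR-434-5p and miR-337-5p. Of all 1738 mature mouse miRNAs 33.3% contained a CpG. The arms of Mir431 share a run of 10 bases (GUCUUGCAGG), and those of Mir434 a run of 9 (UUUGAACCA), which opens miR-434-3p and closes miR-434-5p.

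The deposited values were turned back from log2 to normalized counts. They are whole counts multiplied by 1 factor per sample, between 0.971 and 1.07, and the recovered counts summed to between 511661 and 613666 per sample. The 33 probes for viral miRNAs in the same table served as background, with a limit at their mean plus 2 SD, which was 69.2 normalized counts over the samples and between 60.4 and 88.1 in single samples. The ESC miRNAs of the miR-290 cluster took between 51.2% and 57.4% of the mouse signal in each sample, the highest share in WT replicate 1 and the lowest in TKO replicate 2. The miR-302 cluster, another ESC list, stood higher in TKO cells, with 4 of its 5 probes called. Its summed levels were 349 to 373 normalized counts in WT and 1649 to 2021 in TKO. The test, given below, called 4.24% of all mouse probes in each direction. Of 17 probes for miRNAs of other cell types, 1 was called, and it was lower in TKO cells (neural miR-124, a log2 difference of -1.84). The part of this difference between the cultures in the values below was not tested.

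The proximal miRNAs were measured in both genotypes, and none of them passed the test for a difference between WT and TKO cells. Of the 13 probes, 8 had a mean above background, against 42.0% of all mouse probes. miR-127, miR-136, miR-434-3p, miR-433, miR-431 and miR-540-3p were above it in all 4 samples, miR-434-5p in 2 and miR-370 in 1. limma with Benjamini-Hochberg adjustment over the 566 mouse probes called 0 of the 13 at an adjusted p of 0.05, where 8.48% of all mouse probes were called, 4.24% in each direction. At an unadjusted p of 0.05, 1 of the 13 passed, where 23.5% of all mouse probes did. limma's voom on the recovered counts likewise called 0 of the 13, where it called 15.0% of all probes, and passed 3 before adjustment (miR-136, miR-434-3p and miR-337-3p). With a prior variance that followed the signal level, limma called 0 of the 13 and 14.8% of all probes, and it also passed 3 of the 13 before adjustment. The share of all probes that passed before adjustment in either of these fits is not given here, so those counts of 3 have no measure beside them. TKO minus WT differences were taken on the scale of log2(normalized count + 1), which understates the change of low probes. Their median was 0.042 over the 13 probes, with 8 higher and 5 lower. Over all 566 it was -0.12, with 217 higher and 349 lower.

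**Figure D1:**
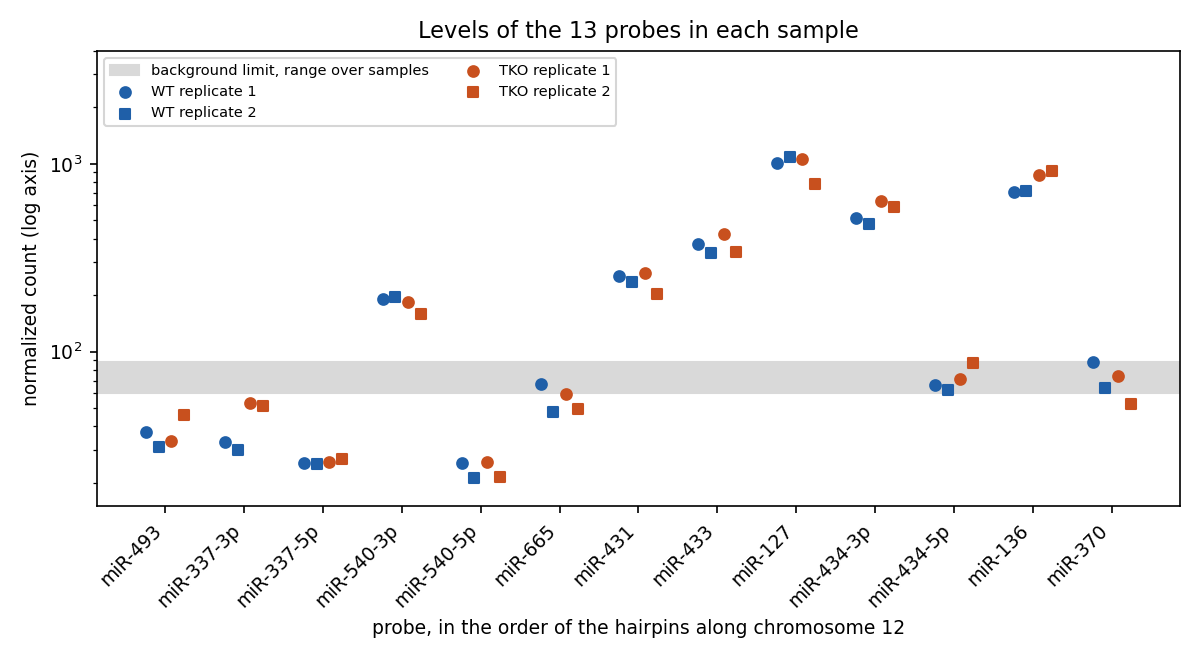
Normalized count (log axis) of each of the 13 probes, ordered by hairpin along chromosome 12, with 1 point per sample (blue WT, orange TKO; circles replicate 1, squares replicate 2). The grey band runs over the background limits of the 4 samples, from 60.4 to 88.1; 6 probes lie above it in all samples, and within most probes the WT and TKO points lie close together.

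miR-127 is among the best known guides against Rtl1 mRNA. Its level was 1015 and 1086 normalized counts in WT and 1063 and 780.4 in TKO replicates 1 and 2. The groups overlapped, since TKO replicate 1 lay between the WT values and TKO replicate 2 alone lay lower. The log2 difference was -0.20 (SE 0.21, 95% interval -0.76 to 0.35, limma adjusted p = 0.625). Counting error did not cover the gap between the TKO replicates, whose exact 95% Poisson intervals were 1001 to 1129 and 725 to 839 (intervals cover counting error only). Without TKO replicate 2 the difference was 0.019, so its sign rested on that sample.

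miR-136, another such guide, was at 704 and 719.7 normalized counts in WT and at 869 and 914 in TKO cells. Both TKO samples lay above both WT samples. The means were 712 ± 11.0 and 892 ± 32.3 normalized counts (SD, n = 2 each), a ratio of 1.25. The log2 difference of 0.32 (SE 0.14, 95% interval -0.063 to 0.71) was not called (limma adjusted p = 0.267). It kept its sign under every alternative run, between 0.29 and 0.46, and came nearest to a call when the prior variance followed the signal level (limma adjusted p = 0.0638).

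miR-434, whose hairpin lies next to that of miR-136, was read by a probe for each arm. miR-434-3p was at 514 and 479.8 normalized counts in WT and at 636 and 587 in TKO cells. miR-434-5p was lower, at 66.4 and 62.2 in WT and at 71.2 and 86.8 in TKO cells. For each arm both TKO samples lay above both WT samples. The log2 differences were 0.30 for miR-434-3p (SE 0.15, 95% interval -0.10 to 0.70) and 0.29 for miR-434-5p (SE 0.17, 95% interval -0.18 to 0.75), and neither was called (limma adjusted p = 0.320 and 0.395).

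miR-433 and miR-431 also come from hairpins facing Rtl1. miR-433 was at 375 and 337 normalized counts in WT and at 424 and 340.9 in TKO cells. miR-431 was at 253 and 236 in WT and at 261 and 204 in TKO cells. For both the groups overlapped, with TKO replicate 1 the highest and TKO replicate 2 below or near the WT values. The log2 differences were 0.097 for miR-433 (SE 0.18, 95% interval -0.39 to 0.59, limma adjusted p = 0.800) and -0.082 for miR-431 (SE 0.19, 95% interval -0.59 to 0.42, limma adjusted p = 0.839).

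Of the miRNAs upstream of these hairpins, 1 probe was above background. miR-540-3p was at 190.5 and 195 normalized counts in WT and at 183 and 159 in TKO cells. Both TKO samples lay below both WT samples, by little in replicate 1. The log2 difference was -0.18 (SE 0.16, 95% interval -0.60 to 0.24, limma adjusted p = 0.577).

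miR-370, the member inside Rian, stood at the edge of background. It was at 87.8 and 64.1 normalized counts in WT and at 74.1 and 52.5 in TKO cells, and only TKO replicate 1 exceeded its sample's limit. The replicates of each genotype differed by more than the genotypes did. The log2 difference was -0.26 (SE 0.26, 95% interval -0.97 to 0.44, limma adjusted p = 0.620). With each sample left out in turn it ran from -0.51 without TKO replicate 1 to -0.017 without TKO replicate 2.

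The other 5 probes, for miR-493, both arms of miR-337, miR-540-5p and miR-665, were below background in every sample, between 21.4 and 67.4 normalized counts. Their differences ran from -0.066 for miR-665 to 0.71 for miR-337-3p. miR-337-3p was the single member with an unadjusted p under 0.05 and is named because its value was seen. It was at 33.2 and 30.1 normalized counts in WT and at 53.4 and 51.5 in TKO cells, and both TKO samples lay above both WT samples. The log2 difference of 0.71 (SE 0.15, 95% interval 0.31 to 1.11) did not pass adjustment (limma adjusted p = 0.0682). These levels rest on 31 recovered counts in each WT sample, and on 54 and 48 in the TKO samples.

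**Figure D2:**
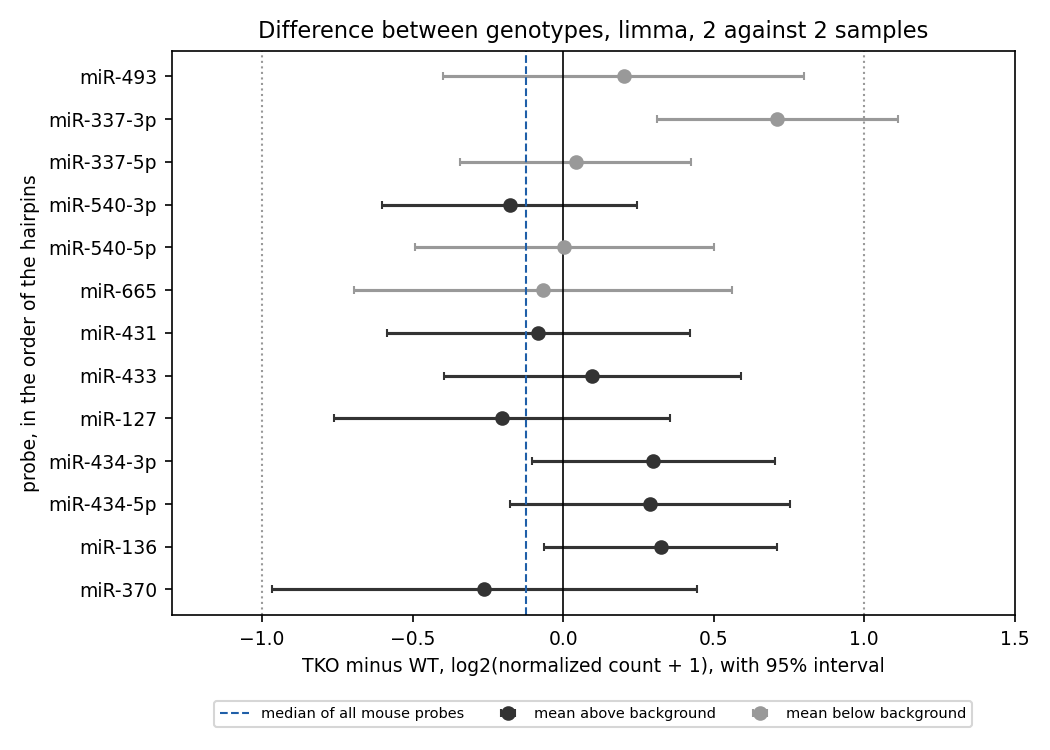
TKO minus WT difference on the log2 scale for each of the 13 probes, with its 95% interval from limma (2 samples per genotype); black probes have a mean above background and grey ones do not, dotted lines mark -1 and 1, and the dashed line is the median of all mouse probes. The interval of miR-337-3p alone lies wholly above 0.

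For the 8 probes above background, the intervals limit the size of change that these data leave possible, with the exceptions given below. A doubling in TKO cells is 1 on the log2 scale and a halving is -1, and both lay outside the 95% interval of each of the 8, whose bounds ran from -0.97 to 0.75. With the samples scaled to the viral probes a doubling lay above the interval of 7 of them. With 1 sample left out, it lay above that of 7 or 8 and a halving below that of 7 or 8. The 5 probes below background carry no such limit, because no background was subtracted here and their log2 differences can be drawn towards 0. Nor do miR-370 and miR-434-5p, which exceeded their sample's limit in only 1 and 2 samples and whose intervals hold the outermost bounds. Without miR-370 and miR-434-5p, the bounds of the other probes above background ran from -0.76 for miR-127 to 0.71 for miR-136. These bounds are for all 4 samples scaled as deposited. With scaling to the viral probes the interval of miR-136 held a doubling (upper bound 1.02). When WT replicate 1 was left out, that of miR-127 held a halving.

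Between genotypes 5 of the 13 probes had both TKO samples above both WT samples (miR-136, both arms of miR-434 and both arms of miR-337), against 17.3% of all mouse probes. Both arms of miR-337 are below background, and miR-337-5p entered on 25.70 against 25.68 normalized counts, while its recovered counts, 24 and 26 in the WT samples against 26 and 25 in the TKO samples, overlap. Among the probes with a mean above background it was 3 of the 8 members and 45 of all 238. That filter takes the mean over both genotypes, so a high level in one genotype can carry a probe past it. Of the 3, miR-434-5p passed through its TKO level, with means of 64.3 normalized counts in WT, below the limit, and 79.0 in TKO cells. miR-370 passed through its WT level (75.9 against 63.3 in TKO cells), but its groups overlapped. A single member, miR-540-3p, had both TKO samples below both WT samples, against 36.0% of all mouse probes. The zero point between the genotypes depends on the scaling, as the median of -0.12 over all probes shows. With each sample divided by the sum of its mouse probes, the median of all probes was 0.0089 and that of the 13 probes 0.17, with 10 higher and 3 lower. Relative to the median of all probes, the members' median stood 0.16 higher. A scaling moves all probes of a sample alike, so this offset is nearly the same under any of them by construction. Without TKO replicate 1 the median was -0.060 for the members and -0.059 for all probes, so this offset rested on that sample.

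**Figure D3:**
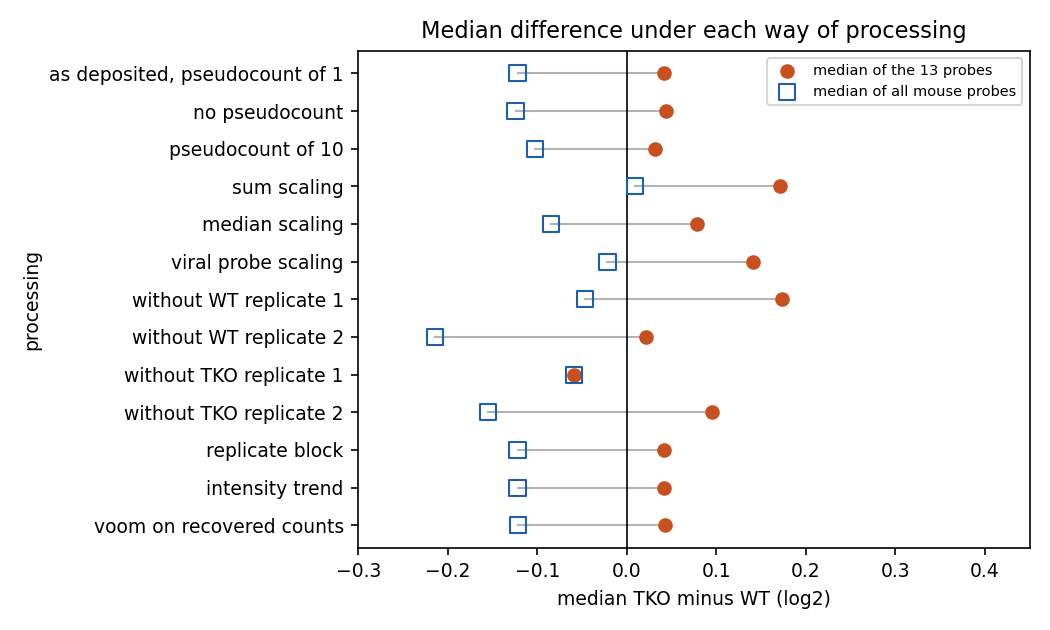
Median TKO minus WT difference on the log2 scale of the 13 probes (filled circles) and of all 566 mouse probes (open squares), 1 line per way of processing. The circle lies to the right of the square in each line but that without TKO replicate 1, where they coincide.

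Over the proximal miRNAs the TKO replicates lay further apart than the WT replicates, with a median absolute log2 difference over the 13 probes of 0.26 between the TKO and 0.098 between the WT replicates. Over all mouse probes the same measure was 0.23 and 0.20. Of the 13 probes, 9 were lower in TKO replicate 2 than in TKO replicate 1, with a median log2 difference of -0.20 between them, while over all mouse probes 38.0% were lower and the median was 0.081. Among the WT replicates 10 of the 13 were lower in replicate 2, where 68.7% of all probes were. Summed over the 13 probes, the normalized counts were 3393 and 3335 in the WT samples and 3779 and 3320.0 in the TKO samples, or 0.576% and 0.560% of the mouse signal in WT and 0.749% and 0.576% in TKO cells. TKO replicate 1 alone stood above the others.

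For 3 hairpins both arms had a probe, which gives a ratio free of the scaling of the sample, although probes for different arms can differ in capture. For miR-434 the 3p level exceeded the 5p level by 2.95 and 2.95 on the log2 scale in WT and by 3.16 and 2.76 in TKO cells, and the groups overlapped, with 5p below its sample's background limit in both WT samples. For miR-540 it exceeded it by 2.891 and 3.19 in WT and by 2.83 and 2.888 in TKO cells. Both TKO values thus lay below both WT values, by very little between WT replicate 1 and TKO replicate 2. miR-540-5p was below background in every sample, so its level, and with it this ratio, may rest on background. For miR-337 both arms were below background in every sample, so no ratio of the arms is given. These ratios were chosen after values had been seen, and 2 samples against 2 allow no two-sided exact permutation p below 0.333, so they are given as values.

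The study sorted mouse precursors by DNA methylation at their borders in ESCs. Mir337, Mir665 and Mir433 are in its downstream group and Mir434 in its upstream group, which are methylated, and the other hairpins are in the unmethylated flat group. The 6 probes of the 4 methylated hairpins had a median log2 difference of 0.19, with 5 higher and 1 lower in TKO cells. Mir337 and Mir434 each count there with both arms. miR-337-5p is among the 5 higher ones at 0.042, with recovered counts that overlap between the genotypes. Of all 566 mouse probes 217 were higher and 349 lower. The differences of the 6 probes ran from -0.066 for miR-665 to 0.71 for miR-337-3p, both below background, and 3 of the 6 had a mean above it. The 7 probes of the flat hairpins had a median of -0.082, from -0.26 to 0.32, with 3 higher and 4 lower. Of these, 5 had a mean above background. The ranges overlapped, and none of the probes of either kind was called.

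Elsewhere in the domain no probe was called either. Of 52 further probes for miRNAs of the domain, 46 could be placed by a hairpin on chromosome 12 in the table. The 8 probes for other miRNAs near Meg3 and Rtl1 (miR-770, miR-1906, miR-673, miR-432, miR-341 and miR-1188) had 3 means above background and a median log2 difference of 0.058. The 44 probes of the distal cluster, from miR-379 to miR-410 and beyond, had 24 means above background and a median of -0.011, with 21 higher and 23 lower. limma called 0 of these 8 and 0 of these 44. At an unadjusted p of 0.05 it passed 1 and 3, which were miR-1906 (0.41) of the former and miR-382 (0.49), miR-412 (0.48) and miR-667 (0.82) of the latter, all named because of these values. Over all 65 probes of the domain 0 were called and 5 passed before adjustment, against the 8.48% and 23.5% of all mouse probes.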

How the data were processed

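The nCounter assay (NanoString) counted mature miRNAs in total RNA. The authors normalized the data with the nSolver software, with version, background step and scaling probes not given in the sources used here, and deposited log2 values of normalized counts, 1 column per sample and 599 probes. Here the log2 values were turned back to normalized counts. Dividing by 1 factor per sample gave whole counts within 0.05 for 100% of values. A pseudocount of 1 was added, log2 was taken, and TKO was compared with WT by limma (lmFit and eBayes, two-sided) over all 566 mouse probes with Benjamini-Hochberg adjustment at 0.05 and 95% intervals. Samples were grouped by their labels, which call the replicates biological, and separate cultures are not named, so p-values measure the spread between these samples. No Dnmt mRNA was measured, so the genotype labels were not checked here.

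The members and lists were chosen with earlier results of these data known. Values in every sample were given for members above background in at least 1 sample or called, or whose groups did not overlap with a difference of at least 1. Alternatives covered the pseudocount (none or 10), the scaling, a filter on background, each replicate left out, a replicate block, an intensity trend and voom. The fit was also run on simulated counts, in which the changed probes were doubled or halved and no separate background signal was drawn. That run does not show how the fit does for smaller differences or for probes near background. Hairpin and mature sequences came from RefSeq, build GRCm38.p6. Fits ran in limma 3.58.1 under R 4.3.3, summaries in Python 3.11.15 with scipy 1.17.1 and pandas 2.3.3, and plots in matplotlib 3.10.9. Precursor methylation groups were read from the study's supplementary lists, and no other published values were used.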

Additional observations from a re-analysis of the deposited data

How the results depend on the processing

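Under each of 13 alternatives limma called 0 of the members it tested in either direction, with the smallest adjusted p of a member between 0.0569 and 0.250. Before adjustment 1 to 3 passed, and the share of all probes that did so under each alternative is not given here. Of 164 differences of single members under an alternative, 152 kept their sign and their side of the threshold and 12 turned sign, 4 through a scaling, which only moves the zero point of all probes, and 8 with a sample left out. The members' median difference of 0.042 moved to 0.17 with scaling to the sum and 0.14 with scaling to the viral probes, where miR-431 turned to 0.052 and 0.021 and miR-665 to 0.066 and 0.036. With each replicate left out in turn, the members' median ran from -0.060 to 0.17, miR-127 from -0.43 to 0.019, miR-431 from -0.26 to 0.095, miR-433 from -0.060 to 0.25, miR-493 from -0.022 to 0.42, miR-540-5p from -0.12 to 0.13 and miR-665 from -0.31 to 0.18, all of which turned sign, while miR-370 ran from -0.51 to -0.017, miR-540-3p from -0.28 to -0.077 and miR-434-5p from 0.15 to 0.43. The causes were not tested. Without TKO replicate 1 or TKO replicate 2 limma called 0 of all 566 probes, without WT replicate 1 it called 14 and without WT replicate 2 it called 9, so a lost call with 3 samples says nothing of a smaller difference. The labels link same-numbered replicates by a number alone, and whether they were handled together is not given. Deviations of same-numbered samples correlated at -0.094 over probes, which cannot settle it. With a replicate block the members' median stayed 0.042 with 0 of 13 called, and calls over all probes went from 48 to 30. They were 84 with the intensity trend and 85 with voom, and 74 of 238 with the background filter, under which the 5 members below background had no value. These 5 probes held between 20 and 63 recovered counts in each sample.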
